A study of Arabidopsis thaliana with 12 samples.

Results

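The response to growth in darkness was measured in Arabidopsis thaliana seedlings that overexpress MINI ZINC FINGER 1 (MIF1), a small plant protein with a zinc finger and no homeodomain. The comparison comprised 6 of the 12 arrays of the study: 3 from dark-grown and 3 from light-grown 35S-MIF1 seedlings, chosen by genotype and growth condition and paired by plant source. The 35S promoter drives the transgene in most cells of the plant, in light and in darkness. Seedlings that grow without light keep short, unopened cotyledons with etioplasts in place of green chloroplasts, elongate the hypocotyl and live on seed reserves. In light, receptors switch on the nuclear genes for photosynthesis, pigments and the Calvin cycle, while growth of the hypocotyl under the control of auxin, gibberellin and brassinosteroid slows down.

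All seedlings were ecotype Columbia, T2 generation, 7 days old and resistant to hygromycin, on which they had been selected at 50 µg/mL. Seeds of every group were stratified in the cold for 2 days, and seedlings grew at 22 °C. The light-grown groups received 16 h of light daily, with 8 h of darkness, at 70 to 120 µmol per square metre per second. Dark-grown seeds had 2 h of light to start germination and none after that. The 35S-MIF1 groups came from 2 transgenic lines, with line 124 supplying replicates 1 and 2 and line 127 supplying the third pair, so that 2 of the 3 pairs share a line. The reference groups carried the empty vector, in the independent lines 1, 4 and 7, under the same 2 growth conditions. Each group has 3 arrays, which limits the precision. Whole seedlings were extracted, so fewer cells of a type and less RNA per cell cannot be told apart in any result below. Transcripts of green tissue and of roots were both present: the log2 level of RCA (Rubisco activase) lay between 11.66 and 12.08 and that of the root beta-glucosidase PYK10 between 11.84 and 12.34 on the light-grown 35S-MIF1 arrays. MIF1 itself has no probe set under its name in the annotation used, and its level is not analysed here.

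Levels are given as log2(intensity + 7), which cannot fall below 2.81 and understates changes of dim probe sets. A difference is dark minus light on that scale, and its standard error (SE) is that of limma. A probe set was called at a Benjamini-Hochberg adjusted p under 0.05 over the 15922 probe sets tested. Darkness changed 4729 of them in 35S-MIF1 seedlings, or 29.7%, of which 2532 (15.9% of those tested) were higher and 2197 (13.8%) were lower in darkness. At least a 2-fold change was reached by 1113 of the higher and 1278 of the lower probe sets, and at least an 8-fold change by 32 and 38. In 4354 of the 4729 (92.1%) the 3 dark arrays did not overlap with the 3 light arrays, against 41.1% of all probe sets tested. The median difference over all probe sets tested was 0.0916. Centring each array on its median log2 value moved that median to -0.00854, and the calls then split into 1945 higher and 2529 lower, so that the share of higher calls was 43.5% in place of 53.5%. Differences given below are to be read against this shift.

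Genes of the Calvin cycle and photorespiration were lower in darkness. HPR, the hydroxypyruvate reductase of photorespiration (AT1G68010), had log2 levels of 11.07, 10.74 and 10.80 in light and 7.88, 7.82 and 8.27 in darkness. Every dark array lay below every light array, and the difference was -2.88 (SE 0.19, limma adjusted p = 0.000476), or 7.36-fold lower. PRK, the phosphoribulokinase that regenerates the CO2 acceptor of the Calvin cycle, stood at 11.23, 10.90 and 11.20 in light and at 7.87, 8.79 and 8.93 in darkness. The same separation held for SBPASE, the sedoheptulose bisphosphatase of that cycle, with a difference of -2.38 (SE 0.21, adjusted p = 0.000635). RCA fell by 1.26. All 4 genes of the Calvin cycle and photorespiration list were therefore called lower, with a median difference of -2.48, against 13.8% of all probe sets tested.

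Of the 12 photosystem, light-harvesting and thylakoid ATP synthase genes tested, 9 were lower in darkness, none was higher and the median difference was -1.27. The lower share of all probe sets tested was 13.8%. PSAN, a small subunit of photosystem I, was at 11.23, 10.99 and 11.02 in light. Its dark levels were 8.20, 8.96 and 9.46, a difference of -2.20 (SE 0.35, limma adjusted p = 0.00292). The dark arrays of line 124 were the lower ones, and the groups did not overlap. LIL3:1, a light-harvesting-like protein that helps to hold chlorophyll synthesis enzymes in the thylakoid, fell by 2.11, and LHCB4.1, a minor antenna protein of photosystem II, fell by 1.15. Copies of these genes did not all pass: LIL3:2 had a difference of -0.80 (adjusted p = 0.0871) and LHCB4.2 one of -0.33 (adjusted p = 0.421). LHCB4.2 ranged from 9.91 to 11.34 in light and overlapped with its dark range of 10.24 to 10.53. Its replicate 1 pair moved up while the other pairs moved down, and without replicate 2 its value was 0.052. Probes of the LHCB4 copies may share signal, so the copies are less certain than single genes.

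Chlorophyll is made from glutamate through the tetrapyrrole pathway. In darkness 7 of its 10 genes tested were lower, against 13.8% of all probe sets tested, and none was higher (median -1.34). CHLI2, a subunit of the magnesium chelatase at the branch towards chlorophyll, fell from 8.14, 8.62 and 8.33 in light to 5.46, 6.51 and 6.5 in darkness. Its difference was -2.21 (SE 0.19, limma adjusted p = 0.000591), with no overlap between the groups. HEME2 and HEME1, the uroporphyrinogen decarboxylases, fell by 1.82 and 1.77, and CHLM, the magnesium protoporphyrin methyltransferase, fell by 1.58. PORB, a protochlorophyllide oxidoreductase that needs light for its reaction, was at 10.83, 10.44 and 10.75 in light and at 8.64, 9.68 and 9.12 in darkness, and was singled out after its values had been seen. It fell by 1.53 (adjusted p = 0.00344) in 35S-MIF1 seedlings. Vector seedlings gave PORB a difference of -0.10 (adjusted p = 0.789), and the test of the difference between the genotypes did not pass (-1.43, SE 0.35, adjusted p = 0.106). Both genes of carotenoid synthesis that were tested, Z-ISO and LYC, were lower, at -1.20 and -0.74. Z-ISO was not called without replicate 1 or without replicate 2. 

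**Figure D1:**
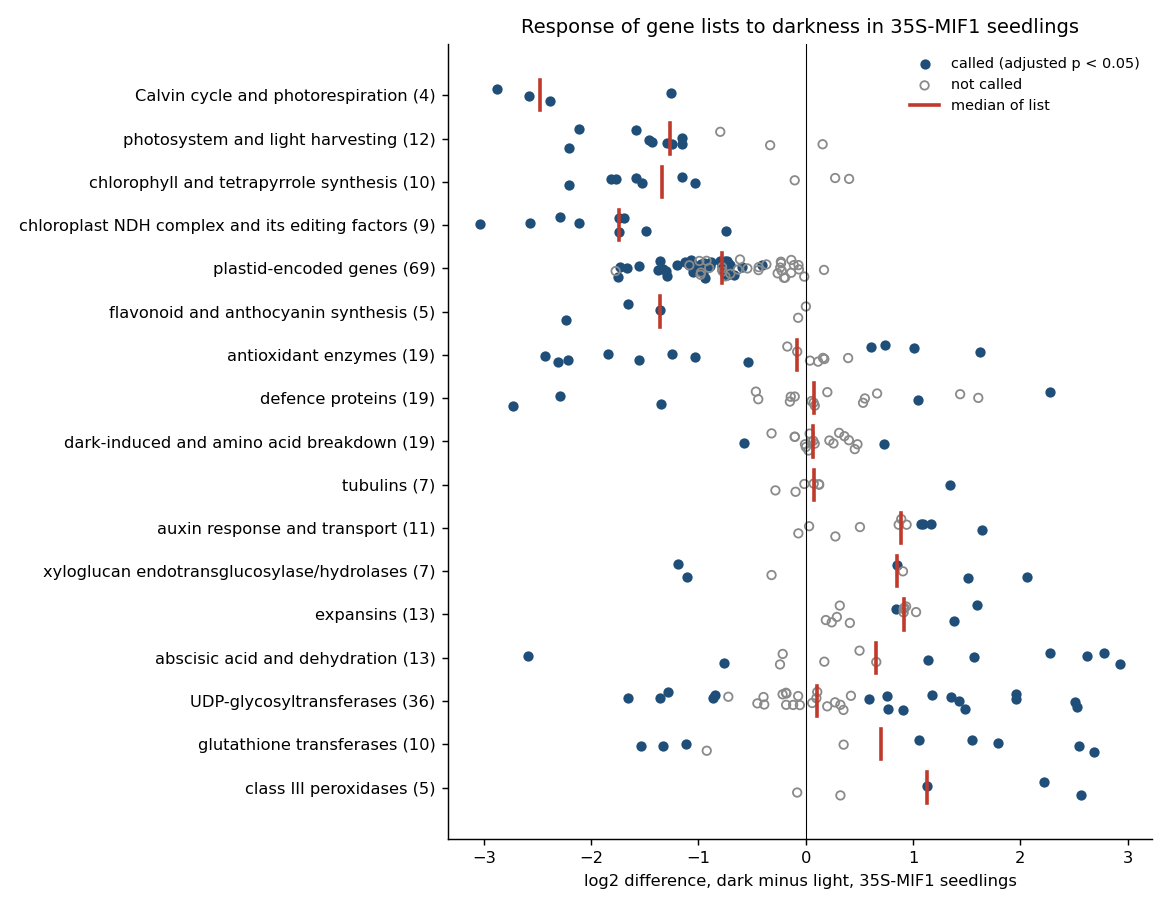
Log2 difference (dark minus light, horizontal axis) of each tested member of the larger gene lists in 35S-MIF1 seedlings, with the number tested in brackets; filled points were called at an adjusted p under 0.05, open points were not, and red bars are list medians. The Calvin cycle, photosystem, chlorophyll, NDH and plastid-encoded lists lie almost wholly left of 0, with medians from -2.48 to -0.78, while the antioxidant, defence, glutathione transferase and UDP-glycosyltransferase lists hold called members on both sides.

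The chloroplast NADH dehydrogenase-like (NDH) complex carries electrons around photosystem I, assembly proteins build it, and pentatricopeptide repeat proteins edit its plastid-encoded messages. This list was chosen after values had been seen. All 9 members tested were lower in darkness (median -1.74), against 13.8% of all probe sets tested. NdhL was at 8.75, 8.48 and 8.47 in light and at 5.53, 6.20 and 6.26 in darkness. NdhN fell by 2.29, and PIFI, a stromal protein needed for NDH activity, fell by 3.04, or 8.20-fold. The assembly proteins CRR42 and CRR41 fell by 2.11 and 1.74, and the editing factors CRR21, CRR22 and CRR28 by 1.74, 1.70 and 0.74. In each of the 9 genes the dark arrays lay below all light arrays.

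Of 69 genes encoded in the plastid genome, 38 were lower in darkness, against 13.8% of all probe sets tested. None was higher and 31 were not called, with a median difference of -0.782. A negative difference was found in 68 of the 69, the exception being psbM at 0.17 (adjusted p = 0.468), and the largest called fall was that of psbA, the D1 protein of photosystem II. Its levels were 10.05, 9.99 and 9.88 in light and 8.40, 7.55 and 8.72 in darkness, a difference of -1.75 (SE 0.23, limma adjusted p = 0.0015). The large Rubisco subunit rbcL fell by 1.55, the D2 protein psbD by 1.66 and the RNA polymerase subunit rpoB by 1.74. The level of psbB, an inner antenna protein, varied from 8.20 to 11.06 in light and gave -1.77 with an SE of 0.64 (adjusted p = 0.0749), and petN of the cytochrome complex gave -1.08 (adjusted p = 0.093). The number of calls depended on single pairs: 8 of the 69 were called without replicate 1, and 20 without replicate 2.

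Thioredoxins activate Calvin cycle enzymes in light, and peroxidases and reductases remove the peroxide that photosynthesis makes. Among 19 antioxidant, thioredoxin and methionine sulfoxide reductase genes of any compartment, 8 were lower and 4 higher in darkness (median -0.0805). Of all probe sets tested, 13.8% were lower and 15.9% higher, and the count of higher genes lies not far from that share. TAPX, the ascorbate peroxidase of the thylakoid, was at 7.95, 8.17 and 8.01 in light and at 5.42, 5.62 and 5.80 in darkness, which made it 5.40-fold lower (adjusted p = 0.000476). TRXF2, an f-type thioredoxin of the plastid, fell by 2.31, the thioredoxin y gene ty2 by 2.22 and NTRC, the plastid thioredoxin reductase, by 1.85. The higher members were MSRB9 at 1.62, TY1 at 1.01, MSRB3 at 0.74 and the cytosolic glutathione reductase GR1 at 0.61. Other chloroplast genes among the 15 largest falls with a symbol, a ranking chosen after values had been seen, were LrgB, a glycolate and glycerate transporter of the envelope, at -2.44, and AOR, a plastid alkenal reductase, at -2.33. AGL87, a gene of the MADS-box family, headed that ranking with levels of 7.08, 7.41 and 6.87 in light and 2.95, 3.67 and 4.21 in darkness (difference -3.51, SE 0.36). STOMAGEN, the mesophyll peptide that promotes stomata, dropped by 2.32 from 7.02, 7.30 and 7.51 to 5.0, 5.38 and 4.51.

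Flavonoid and anthocyanin genes, which light induces for protection from radiation, were lower in 3 of 5 tested (median -1.36). The lower share of all probe sets was 13.8%. CHIL, which enhances the chalcone synthase step, was at 7.02, 6.87 and 6.24 in light and at 3.37, 4.47 and 5.59 in darkness. Its separation was widest in replicate 1 of line 124 and narrowest in line 127. The flavonol glycosyltransferases UGT78D2 and UGT78D1 fell by 1.66 and 1.36. None of the 3 was called without replicate 1, and 1 was called without replicate 2.

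Of 4 oil mobilisation genes and 2 seed protein genes tested, 1 each was called higher in darkness, beside 15.9% of all probe sets tested. The median difference of the oil mobilisation genes was 0.0914, near the 0.0916 of all probe sets. ICL, isocitrate lyase of the glyoxylate cycle, which turns seed oil into sugar, stood at 8.57, 7.92 and 8.90 in light and at 11.71, 12.22 and 11.18 in darkness. No arrays overlapped, and the difference was 3.24 (SE 0.35, limma adjusted p = 0.000964), or 9.47-fold. In vector seedlings ICL started lower, at 3.72 to 5.28 in light, and reached 9.32 to 9.98 in darkness. The other 3 genes of oil mobilisation tested, AIM1, SDP1 and PEX4, were not called, at -0.14, 0.01 and 0.17. PAP85, a vicilin-like seed storage protein, was at 6.16, 5.61 and 5.77 in light and at 9.13, 7.31 and 6.56 in darkness (difference 1.82, adjusted p = 0.00624). OLEO3, an oil-body protein, gave 1.23 (adjusted p = 0.068).

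Late embryogenesis abundant (LEA) proteins protect cells of drying seeds, and they led the list of abscisic acid and dehydration genes. Of its 13 genes tested, 6 were higher and 2 lower, beside 15.9% and 13.8% of all probe sets tested. The count of lower genes lies near that share. LEA4-5 was at 5.08, 4.60 and 5.14 in light and at 8.10, 9.70 and 5.83 in darkness. LEA18 was at 6.12, 5.41 and 5.44 in light and at 9.05, 9.88 and 6.37 in darkness. The groups did not overlap for either gene, and both pairs of line 124 moved far more than the line 127 pair. The differences were 2.93 (SE 0.67, limma adjusted p = 0.0139) for LEA4-5 and 2.78 (SE 0.59, adjusted p = 0.00997) for LEA18. LEA (AT2G21490) and AtLEA4-1 showed the same uneven pairs, with dark levels of 8.02, 8.56 and 5.26 and of 7.72, 8.52 and 5.93. None of these 4 LEA genes was called when replicate 1 was left out, and the higher calls of the list then dropped from 6 to 1. The members that fell were COR27, a cold-regulated gene also under control of the clock, at -2.59 and COR15B, a chloroplast cold-protection protein, at -0.76. COR27 varied from 5.77 to 8.25 in light and was not called without the replicate block, without replicate 1 or without replicate 3.

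**Figure D2:**
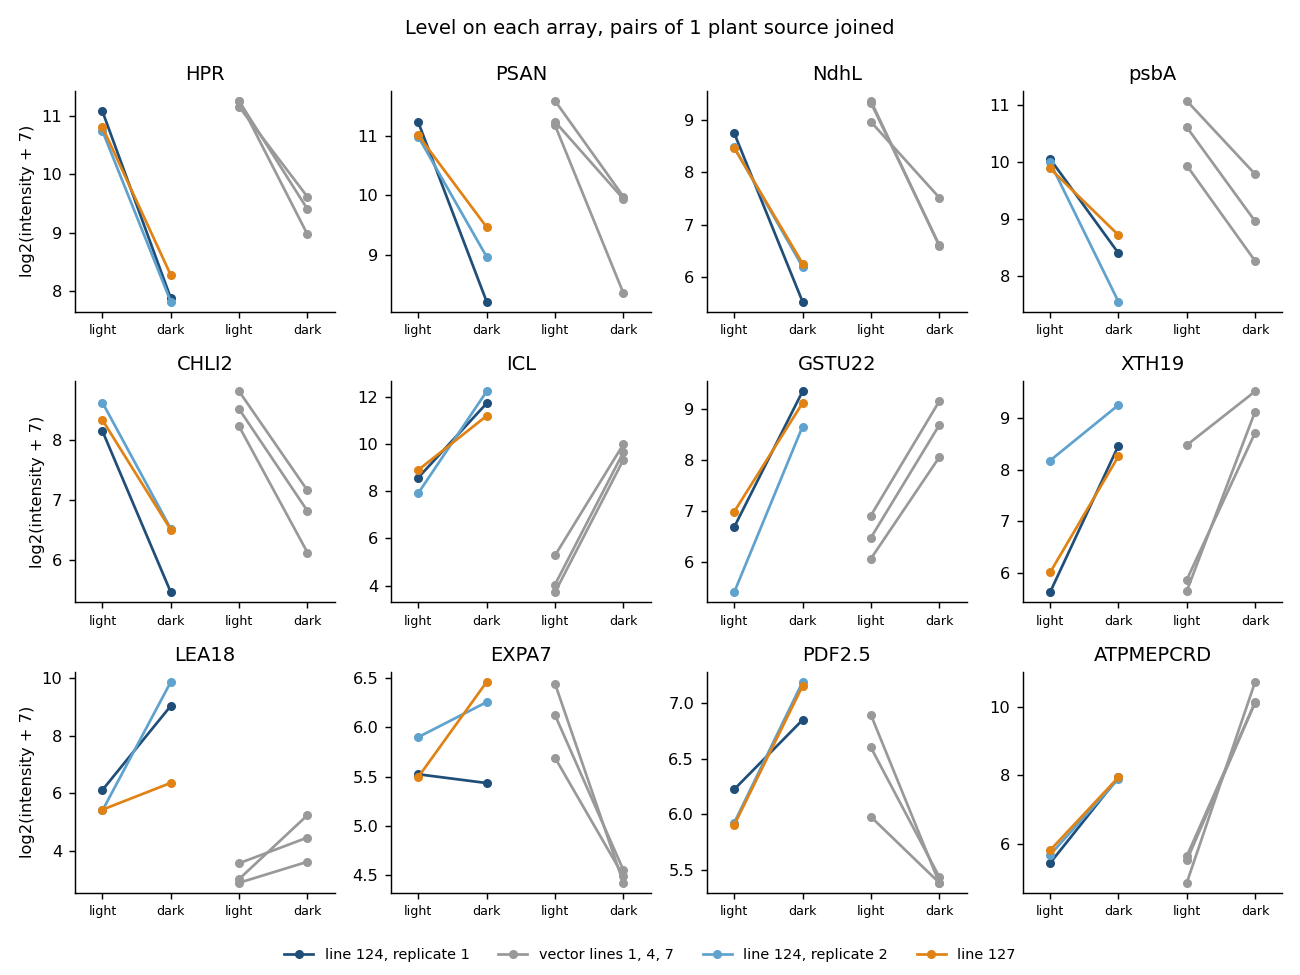
Log2(intensity + 7) of 12 genes on each array, with the light and dark arrays of 1 plant source joined; 35S-MIF1 pairs are coloured by line and replicate and vector pairs are grey. HPR, PSAN, NdhL, psbA and CHLI2 fall along every line in both genotypes, ICL, GSTU22 and XTH19 rise along every line, LEA18 rises least in line 127 among the 35S-MIF1 pairs, and EXPA7 and PDF2.5 fall in all vector pairs while PDF2.5 rises in all 35S-MIF1 pairs.

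The enzyme lists that follow, except that of the cytochrome P450s, were chosen after values had been seen. The counts of all these lists stand beside 15.9% higher and 13.8% lower over all probe sets tested. Of 10 glutathione transferases tested, 5 were higher and 3 lower (median 0.704). GSTU22 was at 6.68, 5.40 and 6.98 in light and at 9.35, 8.65 and 9.12 in darkness, a difference of 2.69 (SE 0.21, limma adjusted p = 0.000492). GSTU25 rose by 2.55, GSTF4 by 1.79 and GSTU26 by 1.55, whereas GSTU18 fell by 1.54 and GSTL3 by 1.33. Of 36 UDP-glycosyltransferases, which attach sugars to hormones and secondary metabolites, 12 were higher and 5 lower, with a median of 0.103. UGT76B1, which acts on isoleucic acid and salicylic acid, rose from 6.98, 6.29 and 6.32 to 9.26, 8.93 and 8.92. UGT73B4 rose by 2.53, and UGT73D1 by 1.96. Among 12 beta-glucosidases 3 were higher and 2 lower, and among 16 serine carboxypeptidase-like genes 4 were higher and 3 lower. Of 11 cytochrome P450 genes tested 3 were higher and 1 lower. The lower share of the UDP-glycosyltransferases and the counts of the last 3 lists lie not far from those of all probe sets. Further genes among the 15 largest rises with a symbol were ATSBT5.2, a subtilase, at 3.29 (9.77-fold), ATC, a relative of the flowering regulator TFL1, at 2.35, SUFE2, a sulfur-transfer activator, at 2.31, and CCOAMT, a caffeoyl-CoA methyltransferase, at 2.30. The range of levels for ATSBT5.2 was 5.47 to 6.51 in light and 9.12 to 9.91 in darkness.

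Auxin genes were higher in darkness in 4 of 11 tested, against 15.9% of all probe sets, with none lower and a median of 0.890. YUC6, a flavin monooxygenase of auxin synthesis, was at 4.26, 4.41 and 3.39 in light and at 6.18, 5.44 and 5.38 in darkness (difference 1.64, SE 0.30, limma adjusted p = 0.00569). GH3.17, which conjugates auxin to glutamate, rose by 1.17, the transcription factor LBD16 by 1.09 and WAG2, a kinase that directs auxin transport, by 1.07. IAA20 and WES1, an auxin-conjugating enzyme of the GH3 family, gave 0.94 (adjusted p = 0.142) and 0.89 (adjusted p = 0.0834) without a call. IAA20 reached 5.66 only in the second dark replicate of line 124, the others lying at 3.4 and 3.95. In vector seedlings 8 of the 11 were higher (median 1.42), against 20.4% of all probe sets, with IAA20 at 3.76 and WAG2 at 3.28. The difference between genotypes was -2.82 (adjusted p = 0.0766) for IAA20 and -2.21 (adjusted p = 0.0553) for WAG2, and no auxin gene passed that test. Only 1 of the 4 calls was made without replicate 1 or without replicate 2.

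Other hormone lists were small, and their counts stand beside 15.9% higher and 13.8% lower over all probe sets tested. GID1B, a gibberellin receptor, rose by 0.75 (limma adjusted p = 0.013), 1 of 4 gibberellin genes tested, and was not called without replicate 2 or without replicate 3. RR16 and ARR15, the cytokinin response regulators tested, fell by 0.83 and 0.82, and neither was called without the replicate block. None of the 2 brassinosteroid and 3 ethylene genes tested was called by limma. The gibberellin, brassinosteroid and ethylene lists are too short for their counts to be told apart from those shares.

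Counts of wall genes stand beside 15.9% higher and 13.8% lower over all probe sets tested. XTH enzymes cut and rejoin xyloglucan in the growing wall, and 3 of 7 tested were higher and 2 lower. XTH19 was at 5.62, 8.18 and 6.0 in light and at 8.47, 9.26 and 8.27 in darkness. Its light level in the second replicate of line 124 lay just below all dark levels, and the difference was 2.07 (SE 0.47, limma adjusted p = 0.0141). XTH18 rose by 1.52, while XTH32 and EXGT-A3 fell by 1.19 and 1.11. XTH16 gave -0.32 (adjusted p = 0.248). Of 13 expansins, which loosen walls without cutting them, EXPB1, EXPA9 and EXLB1 were higher at 1.59, 1.38 and 0.84, and none was lower. All 13 had a positive difference (median 0.912), but EXPA8, at 3.78, 7.17 and 4.19 in light and 6.04, 6.44 and 5.75 in darkness, showed overlapping groups (1.03, SE 0.65, adjusted p = 0.278). EXPA4 gave 0.94 (adjusted p = 0.0766). Of 5 genes tested on the pectin list, the pectin methylesterase gene ATPMEPCRD rose by 2.27 and PME61 fell by 0.82. PMEAMT, which rose by 1.12, entered that list by its name only. It is a phosphoethanolamine methyltransferase and not a pectin enzyme. The class III peroxidase list holds only 7 genes matched by name and does not stand for the whole family. Of its 5 genes tested 3 were higher (median 1.13), with AT2G41480 (peroxidase 25) at 2.57 and AT5G66390 (peroxidase 72) at 2.22. The tubulin gene TUB1, known to be lowered by light, rose by 1.34, the only 1 of 7 tubulins to be called. Cellulose synthase and related genes were higher in 2 of 9, CSLD2 at 0.58 and GUT2 at 0.46, and this count and that of the tubulins lie near the share of all probe sets. The calls of CSLD2 and GUT2 ended under median centring and under 4 and 5 other settings, and that of PME61 under 7, both other blocks among them. XTH19 and XTH32 were not called without the replicate block. EXPA9, EXLB1, PMEAMT, TUB1 and XTH18 each lost the call when at least 1 pair was left out. The count of higher XTH genes was 0 without replicate 1, and that of higher expansins ranged from 1 to 6 over the alternative settings.

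Genes of amino acid breakdown and autophagy, known as dark-induced in leaves, were mostly not called. Of 19 tested, 1 was higher and 1 lower, against 15.9% and 13.8% of all probe sets, with a median of 0.0698. APG8A, an autophagy protein, was at 7.94, 8.16 and 8.48 in light and at 8.82, 8.80 and 9.15 in darkness (0.73, SE 0.14, limma adjusted p = 0.00683). Without replicate 1 APG8A was not called (limma adjusted p = 0.0563). ETFQO, which passes electrons from branched-chain amino acid breakdown to the respiratory chain, fell by 0.58, and lost its call under 7 settings, among them both other blocks, no filter, and the fit of the 35S-MIF1 arrays alone (adjusted p up to 0.206). IVD, isovaleryl-CoA dehydrogenase, and MCCA, a methylcrotonyl-CoA carboxylase subunit, were singled out after their values had been seen. IVD was at 9.68, 9.30 and 8.68 in light and at 9.37, 8.86 and 9.65 in darkness, so the groups overlapped and the line 127 pair moved against the other 2. Its difference was 0.07 (adjusted p = 0.904) and that of MCCA -0.10 (adjusted p = 0.85). Vector seedlings had 9 of the 19 higher in darkness (median 0.494), against 20.4% of all probe sets, with IVD at 1.67 and MCCA at 1.5. In light IVD lay at 7.03, 8.88 and 8.12 in vector seedlings, and 2 of these 3 were below all light levels of 35S-MIF1 seedlings. The genotypes' difference was -1.60 for IVD (adjusted p = 0.161) and -1.61 for MCCA (adjusted p = 0.152), and no gene of the list passed that test.

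Defence genes were lower in 3 of 19 and higher in 2, shares near the 13.8% lower and 15.9% higher of all probe sets tested. THI2.2, a thionin, was at 6.31, 7.79 and 4.58 in light and at 3.38, 3.65 and 3.46 in darkness (difference -2.73, SE 0.47, limma adjusted p = 0.0041). ECS1 fell by 2.29, a call that ended without the filter, without replicate 1 and without replicate 2, and the defensin gene PDF1.2b by 1.35. CHI, annotated as a putative chitinase (AT2G43570), rose from 7.47, 6.59 and 7.92 to 9.95, 9.51 and 9.34, and the defensin PDF2.5 rose by 1.04. Of 7 nitrate and peptide transporter genes tested 1 was higher and 2 lower. These calls ended under 13 settings for AT1G72125 and under 2 each for AT1G59740 and AT3G21670. Of 5 sulfur assimilation genes none was called. GTR2, a glucosinolate transporter, rose by 0.80 as 1 of 4 glucosinolate genes, and was not called without replicate 1 or without replicate 2. BCAT4, the first enzyme of methionine chain elongation, gave -0.80 (adjusted p = 0.241) with both arrays of the second pair high. In starch metabolism APL3, a subunit of ADP-glucose pyrophosphorylase, rose by 1.53 and DPE1, the plastid disproportionating enzyme, fell by 0.96. HIS1-3, a linker histone known for induction by drought, rose by 1.16, the only call among 9 histone and replication genes. That call ended without the replicate block, without replicate 1 and without replicate 3. Neither of the 2 genes on the pentatricopeptide repeat list was called. That list does not hold the editing factors CRR21, CRR22 and CRR28, which were lower as given above.

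Light signalling and clock genes named on the array were few. FHL, which carries phytochrome A into the nucleus, was at 4.91, 4.65 and 4.82 in light and at 7.07, 6.37 and 5.31 in darkness (1.46, SE 0.28, limma adjusted p = 0.00716). HYH, a light-promoting bZIP factor, gave -1.42 (adjusted p = 0.128). XCT, a clock regulator, fell by 0.68, and was not called when any 1 of the 35S-MIF1 pairs was left out. The clock gene GI was at 8.02, 8.65 and 5.11 in light and at 8.81, 8.25 and 7.92 in darkness (1.06, SE 0.72, adjusted p = 0.306). Its light array of line 127 stood more than 2 log2 units below the other light arrays, as did the vector line 7 light array at 4.76 against 8.54 and 8.83.

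Markers of other cell types gave no call in 35S-MIF1 seedlings. The root hair expansins EXPA7 and EXPA18 and PYK10 differed by 0.41, 0.91 and 0.15 (limma adjusted p = 0.22, 0.0504 and 0.516), and all 3 root markers tested were at a log2 level of 4.42 or more on every array. The guard cell gene FMA gave -0.22 (adjusted p = 0.312). In vector seedlings EXPA7 fell by 1.60 and FMA fell by 1.00. No marker of xylem or phloem was analysed here.

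Among all genes with a single name, the largest rises included genes known only by locus number. AT3G15670 was at 5.32, 4.98 and 6.01 in light and at 10.14, 11.38 and 7.15 in darkness, and had the largest rise of them (4.12, SE 0.83, limma adjusted p = 0.00802). It was not called without replicate 1 (adjusted p = 0.0559). AT5G44440 rose by 3.93 and AT2G43590 by 3.83. The largest fall was that of AT1G70820, from 8.02, 8.65 and 7.00 to 3.05, 3.15 and 3.07 (-4.80, SE 0.33). Its dark levels were close to 2.81, the lowest possible value, so the size of the fall is limited by the scale. AT2G36145 fell by 4.55 and AT3G22210 by 4.06. Probe sets without a gene name went further: 256376_s_at rose by 5.03 and 254550_at by 4.12, and 259161_at fell by 5.97 and 250207_at by 4.92.

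The response was compared between the 2 overexpression lines. Both pairs of line 124 rose at least 2-fold for 917 probe sets, and the line 127 pair, which had no part in choosing them, was also higher in darkness for 903 of these (98.5%), against 56.4% of all probe sets tested. At least 2-fold was reached in line 127 by 543 of the 917 (59.2%, against 7.25% of all tested). For the 1162 probe sets at least 2-fold lower in both line 124 pairs, line 127 was lower for 1133 (97.5%, against 43.6%), and at least 2-fold lower for 818 (70.4%, against 7.11%). The sizes were smaller in line 127: the median over those picked was 1.14 in line 127 and 1.62 in line 124 for the higher, and -1.29 and -1.74 for the lower. A drop is built into this comparison, because the probe sets were picked on the line 124 values. Over all probe sets tested, at least 2-fold changes numbered 1592 higher and 1631 lower in the first pair of line 124, 1284 and 1473 in its second pair, and 1154 and 1132 in line 127.

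**Figure D3:**
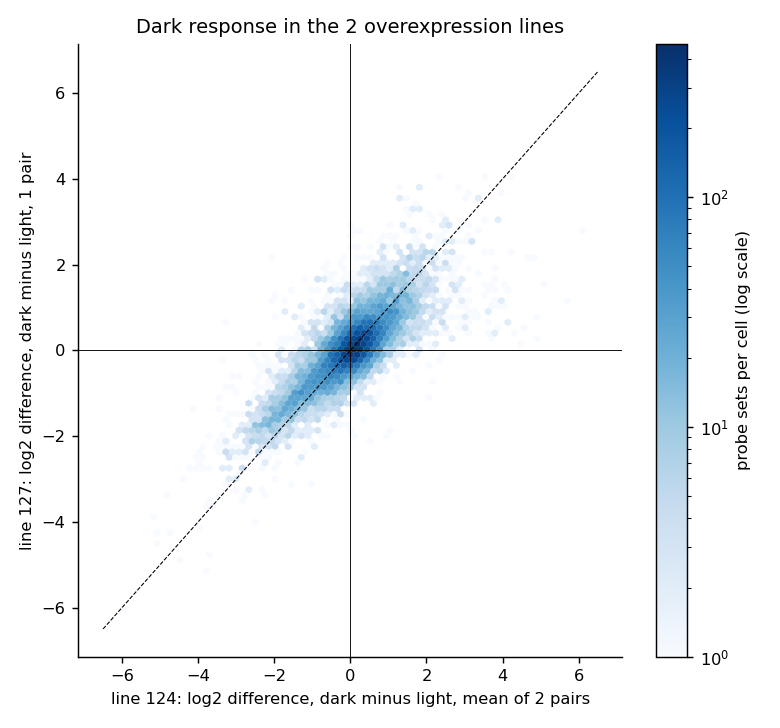
Mean log2 difference (dark minus light) of the 2 line 124 pairs on the horizontal axis against the line 127 pair on the vertical axis for the 15922 probe sets tested, shaded by the number of probe sets; the dashed line marks equal values. Most probe sets with large differences lie at the lower left and upper right, and of the 917 at least 2-fold higher in both line 124 pairs 903 lie above 0 in line 127.

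Vector seedlings give the reference response. Of the same 15922 probe sets, darkness raised 3249 (20.4%) and lowered 2624 (16.5%) in them. The shared part comprised 1573 probe sets higher in both genotypes, which is 62.1% of the higher calls of 35S-MIF1 and 48.4% of those of vector seedlings. Lower in both were 1609, or 73.2% and 61.3%. Opposite calls were made for 74. Of the 2532 probe sets higher in 35S-MIF1 seedlings, 89.7% also had a positive value in vector seedlings, and 93.7% of the 2197 lower ones had a negative value. The same shares over all probe sets tested were not computed, and the median vector difference over all of them was 0.0593. Both genotypes were called with a shared estimate of spread for each probe set, which favours shared calls. List medians in vector seedlings were -1.70 for the Calvin cycle, -1.28 for the photosystems, -0.854 for chlorophyll synthesis, -0.434 for plastid-encoded genes and -1.60 for the NDH complex, and no member of these 5 lists passed the test of a difference between genotypes.

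The difference of the dark response, 35S-MIF1 minus vector, passed for 208 probe sets: 120 (0.754% of those tested) with a positive and 88 (0.553%) with a negative value. Among the 120, 94 were called higher in 35S-MIF1 seedlings, and 62 were called lower and 6 higher in vector seedlings. Among the 88, in 35S-MIF1 seedlings 39 were called lower, 15 higher and 34 were not called. These directions are partly built in, because the probe sets were picked on the difference between the same values. Of the 208, 99 named 1 gene. The fit without the replicate block called 120, and the one with a random block 451.

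**Figure D4:**
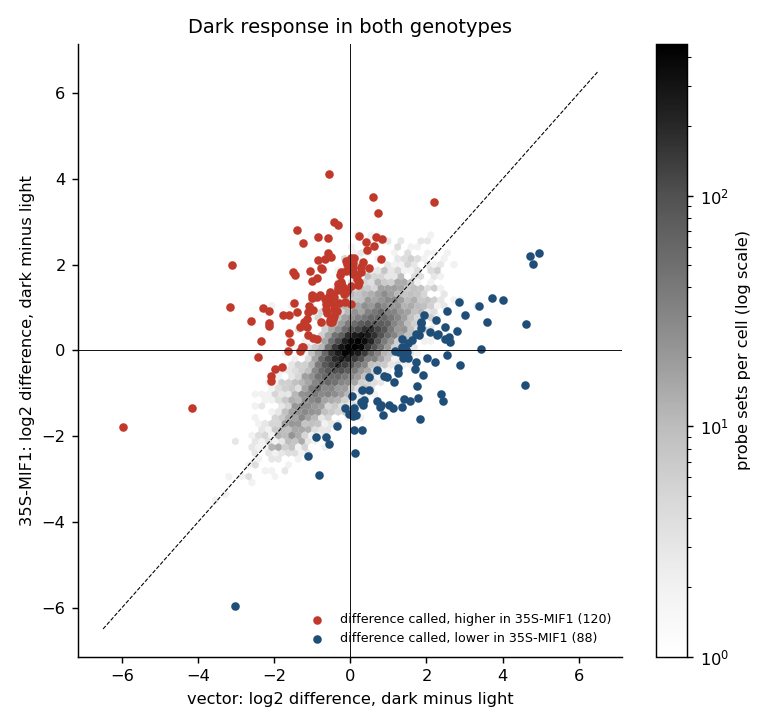
Log2 difference (dark minus light) in vector seedlings on the horizontal axis against 35S-MIF1 seedlings on the vertical axis for the 15922 probe sets tested, shaded by number; coloured points are the 208 whose difference between genotypes was called, 120 red and 88 blue. Most probe sets lie along the dashed line of equal values, and the coloured points lie away from it on both sides.

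The positive differences included genes that were lower in darkness in vector seedlings and higher in 35S-MIF1 seedlings. AT5G62340 was at 7.28, 6.32 and 6.32 in light and at 9.43, 9.27 and 9.14 in darkness in 35S-MIF1 seedlings, against 7.42, 7.36 and 7.87 in light and 6.71, 6.83 and 6.53 in darkness in vector seedlings. The direction was opposite in every pair, and the difference was 3.50 (SE 0.30, limma adjusted p = 0.00652). AT5G62330 rose by 3.0 in 35S-MIF1 seedlings and gave -0.44 in vector seedlings. The gene sks15, a member of the SKU5-similar family of wall-associated proteins, moved from 5.95, 5.33 and 4.66 to 7.20, 7.23 and 6.80 in 35S-MIF1 seedlings. In vector seedlings sks15 went from 5.99, 5.76 and 5.93 in light to 4.93, 4.63 and 3.75 in darkness, and the difference was 3.22 (adjusted p = 0.0131). The defensin PDF2.5 went from 6.22, 5.92 and 5.90 to 6.85, 7.19 and 7.15 in 35S-MIF1 seedlings and from 6.60, 5.98 and 6.89 to 5.44, 5.39 and 5.39 in vector seedlings. The largest value among named genes was that of AT1G23130, which fell in both genotypes, by 1.79 in 35S-MIF1 and by 5.98 in vector seedlings. EXPA7, which acts in root hairs, had dark levels of 5.43, 6.26 and 6.46 in 35S-MIF1 seedlings and of 4.42, 4.49 and 4.55 in vector seedlings, with overlapping light levels (difference 2.01, adjusted p = 0.0339). Its relative EXPA18 gave 1.70 (adjusted p = 0.102). The call of the EXPA7 difference ended under 6 settings, among them each left-out 35S-MIF1 pair. Those of PDF2.5 and AT1G23130 ended under 4 and 3 settings, and those of sks15 and AT5G62330 under 1 each.

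Of the 88 negative differences, 67 were called higher, 6 lower and 15 not at all in vector seedlings, a lean that picking on the difference partly builds in. ATPMEPCRD, a pectin methylesterase, reached 7.95, 7.90 and 7.95 in darkness in 35S-MIF1 seedlings and 10.13, 10.72 and 10.12 in vector seedlings, from light levels of 5.45 to 5.82 and of 4.88 to 5.65. Its rise was 2.27 and 4.97, and the difference was -2.69 (SE 0.36, limma adjusted p = 0.0208). AT4G37220 was at 6.53, 6.55 and 6.19 in the dark-grown 35S-MIF1 seedlings and at 9.56, 11.21 and 10.25 in the dark-grown vector seedlings, while light levels were 5.20 to 6.22 and 5.14 to 6.08. AT3G48970 rose by 0.66 and by 3.60, and AT2G37130 gave -0.10 against a rise of 2.55. UGT76E2 stayed between 4.65 and 5.28 in darkness in 35S-MIF1 seedlings, where vector seedlings had 6.97 to 7.51 (difference -2.21, adjusted p = 0.0123). AT3G23760 fell by 2.39 in 35S-MIF1 seedlings and gave 0.11 in vector seedlings. Calls of the difference ended under 6 settings for AT3G23760, 4 for ATPMEPCRD and 3 for AT4G37220. Of the unnamed probe sets given above, 254550_at gave -0.56 in vector seedlings (difference 4.69, adjusted p = 0.012), and 259161_at fell by 3.04 there (difference -2.93, adjusted p = 0.031). Large gaps that did not pass were those of ICL (-2.05, adjusted p = 0.102), BCAT4 (2.75, adjusted p = 0.101) and STOMAGEN (-1.76, adjusted p = 0.142).

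**Figure D5:**
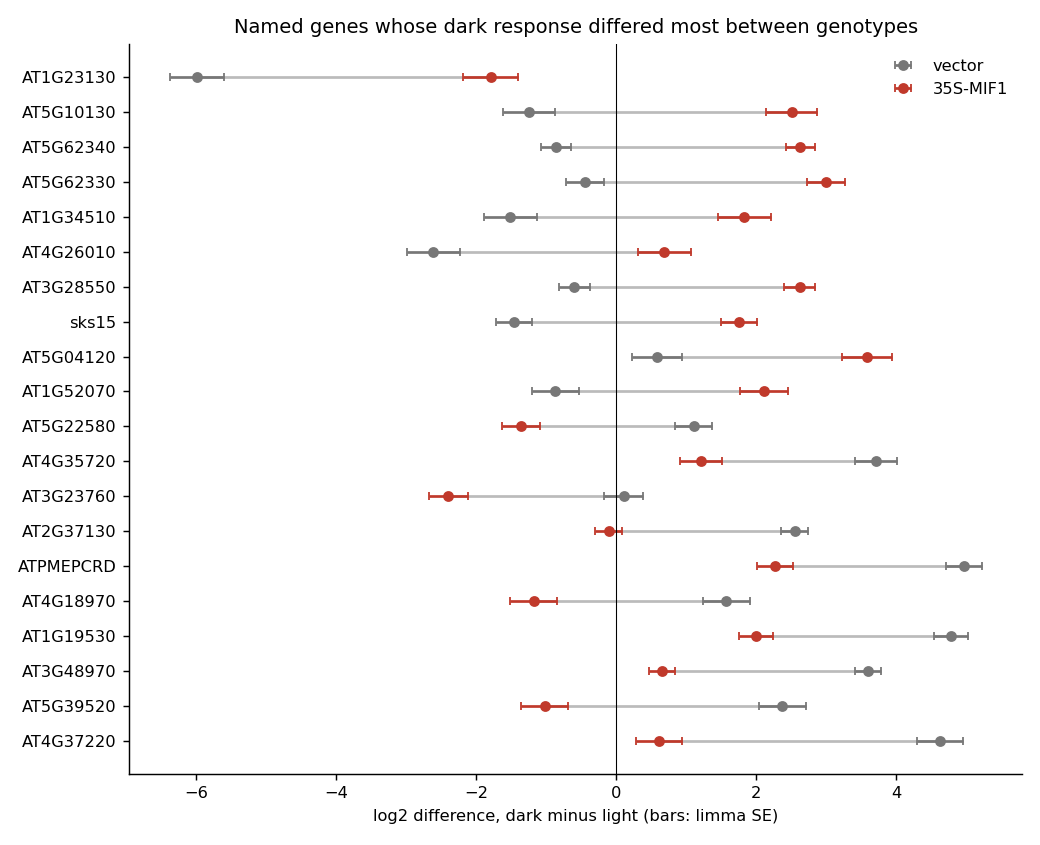
Log2 difference (dark minus light) in 35S-MIF1 (red) and vector (grey) seedlings for the 20 named genes with the largest called differences between genotypes; bars are limma standard errors and n is 3 pairs for each genotype. From AT1G23130 to AT1G52070 the red points lie right of the grey ones, by 4.2 to 2.97, and from AT5G22580 to AT4G37220 they lie left of them.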

How the data were processed

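RNA of 12 samples was hybridised to Affymetrix ATH1 arrays. The deposited table gives 1 linear intensity per probe set and array, made by the authors with GCOS, per the submitters' processing notes, with no version given in the sources used here. After trimming 2% at each end the mean intensity was 150.01 on every array, and array medians ran from 57.4 to 70.4. No detection calls were used and no array held the values of another. From the intensities log2(value + 7) was computed, 64 control probe sets and those under the 30th percentile of mean intensity were left out, and 15922 were tested with limma 3.58.1 (R 4.3.3) by lmFit and eBayes. The 6 plant sources were a fixed block, with a dark effect for each genotype and their difference, leaving 4 residual degrees of freedom. Line and replicate number come from the titles, and the deviations of same-source arrays from their group means correlated at 0.235 to 0.334. The fit was tested on simulated data.

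Of 22746 probe sets, 13513 named 1 gene in the platform annotation, 503 several and 8730 none, and 13436 matched a RefSeq gene table of TAIR10.1, from which no coordinates are given because no build is named for the arrays. A gene with several probe sets is represented in lists by the brightest. The comparison, 42 gene lists (34 with a named probe set) and all rules were chosen with earlier results of these data known, and 5 further lists and the rankings by symbol after values had been seen; 31 memberships were left out by name. Genes named are the 15 largest rises and falls that were called, did not overlap and moved alike in 3 pairs, and the 10 largest called differences each way. Per list they are up to 4 called, 2 not called and 3 with a called difference. In some lists further members are named as well. A planned motif search in promoters was not run, since no promoter sequence was used here. Replicates are biological, per the labels' design text. A p-value weighs a difference against the spread of the pair differences, which limma estimated from the pairs of both genotypes together. The 3 overexpression pairs came from 2 lines, and pairs of the same line were counted as independent. The p-values therefore do not stand for variation between overexpression lines. Alternatives were the block, pseudocount, filter, scaling, trend, threshold and each left-out pair.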

Additional observations from a re-analysis of the deposited data

Results flagged for a closer look

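The dark response differed between 35S-MIF1 and vector seedlings, by the limma test of the difference itself, for 208 probe sets. The values here are that difference, 35S-MIF1 minus vector, in log2 units. Among the 10 largest positive named ones were AT1G23130 (4.2), AT5G10130 (3.75), AT5G62340 (3.50), AT5G62330 (3.44), AT1G34510 (3.34), AT4G26010 (3.30), AT3G28550 (3.22), sks15 (3.22), AT5G04120 (3.0) and AT1G52070 (2.97). The 10 largest negative named ones were AT4G37220 (-4.01), AT5G39520 (-3.4), AT3G48970 (-2.94), AT1G19530 (-2.79), AT4G18970 (-2.75), ATPMEPCRD (-2.69), AT2G37130 (-2.65), AT3G23760 (-2.50), AT4G35720 (-2.50) and AT5G22580 (-2.46). List members with a called difference were PDF2.5 (2.13), EXPA7 (2.01), UGT71C1 (1.97), GSTU28 (1.48) and UGT76E2 (-2.21). Of these 25 calls, 4 stayed under every alternative other than the stricter thresholds: AT5G62340, AT3G48970, AT2G37130 and UGT76E2. Groups of 3 arrays are too small to mark a single array as standing apart.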

How the results depend on the processing

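The 2532 higher and 2197 lower calls in 35S-MIF1 seedlings kept within 1.5 times their number under the other pseudocounts, filters, scalings and blocks. Without the replicate block, which ignores the pairing, 3901 were called (2009 higher, 1892 lower). An adjusted p under 0.01 left 2606 (1197 higher, 1409 lower), and at least 2-fold 2391 (1113 and 1278). Leaving out 1 pair gave 2513 to 4802 calls (1137 to 2571 higher, 1376 to 2248 lower), the lowest without replicate 1 and 2974 (1444 higher) without replicate 2. Line 127 alone, with the spread of the vector pairs, gave 16 (13 and 3), by its construction from 1 pair. In vector seedlings an adjusted p under 0.01 left 2960 (1521 and 1439) and at least 2-fold 2451 (1214 and 1237), and leaving out 1 pair gave 3172 to 5541 (1658 to 3077 and 1514 to 2464), the lowest without replicate 2 (line 4) and 3903 (2024 higher) without replicate 3. The difference between genotypes, 208 calls (120 positive, 88 negative), gave 120 (70 and 50) without the replicate block, 451 (235 and 216) with a random block, 132 (57 positive) at the 50th percentile filter, and 16 (9 and 7) at an adjusted p under 0.01. Leaving out 1 pair gave 43 to 138 (20 to 91 and 23 to 59), the lowest without replicate 2 of 35S-MIF1. The cause of these shifts was not tested, apart from the fewer samples or stricter rules themselves. The line 127 check kept 584 of 590 higher probe sets at a pseudocount of 32, where fewer reach 2-fold, in place of 903 of 917.

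Of the 134 calls in 35S-MIF1 seedlings that were followed under the alternatives, 87 stayed under every one but the stricter thresholds and line 127 alone. Some further called list members named above, such as CRR41 and MSRB9, were not followed. Genes not called that changed sign were LHCB4.2 (-0.68 to 0.052 over the left-out pairs), IVD (-0.38 to 0.327, and -0.03 with median centring), MCCA (-0.545 to 0.162, and 0.783 in line 127 alone) and PYK10 (-0.005 to 0.244, and -0.049 in line 127 alone). None of the 134 calls followed reversed under an alternative run. List medians near 0 that turned negative with median centring were those of tubulins, oil mobilisation, dark-induced, nitrogen and defence genes. Dim probe sets near the lowest level limit the size of a fold change.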
